A study of Mus musculus with 2 samples.

Results

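The regulatory factor X (Rfx) genes encode transcription factors, and the deposited p300 peaks of embryonic mouse neocortex were read here around 6 of them: Rfx1, Rfx2, Rfx3, Rfx4, Rfx5 and Rfx7. The genes were taken by family and not by any measured value, because sites for Rfx dimers had been seen to mark the peaks. A peak was assigned to an Rfx gene when its midpoint lay in the gene body or within 500 kb of the start site. By this rule 30 of 6629 peaks (0.453%) were assigned to the 6 genes, out of 22367 protein-coding genes annotated in GENCODE vM1 on the mm9 (NCBIM37) build, and every peak belonged to 1 Rfx gene only.

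The tissue came from Swiss Webster embryos at day 14.5 and was the dorsal wall of the cerebrum, with the medial structures, the cortical hem and the choroid plexus removed. Chromatin from about 0.15 g of tissue, fixed for 15 min in 1% formaldehyde, was immunoprecipitated with an antibody to p300, a histone acetyltransferase that is recruited to active enhancers, and 1 input library served as its control. The input library was not analysed here. There was 1 p300 library without a replicate, no second condition and no measurement of expression, so every interval and p-value below covers counting of peaks only, and whether any Rfx gene was transcribed in this tissue was not measured. The list gives the position of each peak without a score or read count, so the depth behind a peak is unknown, and its authors had removed peaks at exons and near start sites, so p300 at the Rfx promoters was not covered. Genes that mark the dorsal cortex had 4 to 12 peaks in the same kind of window (7 genes), ventral telencephalic markers 1 to 7 (5 genes), blood and liver markers 0 to 2 (4 genes) and muscle markers 0 to 5 (2 genes).

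Rfx proteins bind DNA through a winged-helix domain, and their target is the X-box, an inverted repeat of a pair of arms that an Rfx dimer can hold. The X-box was first known from the promoters of major histocompatibility complex (MHC) class II genes, where Rfx5 acts together with Rfxap and Rfxank. Rfx2 and Rfx3 are known for switching on the genes of cilia, Rfx4 for the patterning of the embryonic brain and its midline, and Rfx1 is a broadly expressed relative that also acts on cilium genes. Rfx5 and Rfx7 lack the dimerization domain that the others carry.

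An X-box near Rfx1 and X-boxes in separate Rfx2 peaks are shown first, because Rfx dimer sites among the peaks were the reason for the choice of genes. The Rfx1 site matched the Rfx dimer consensus, and the Rfx2 sites were found by a search for X-boxes with a variable gap between the arms, which was added after the data had been seen. Each line holds 60 bases of the plus strand of mm9, 5′ to 3′, taken from the NCBIM37 genome, with the X-box in capitals.
Rfx1, downstream peak, chr8:86721601-86721660: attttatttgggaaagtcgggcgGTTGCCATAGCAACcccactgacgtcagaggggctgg
Rfx2, peak near Ptprs, chr17:56627727-56627786: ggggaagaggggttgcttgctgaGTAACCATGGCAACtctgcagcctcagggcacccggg
Rfx2, intron 1, farther peak, chr17:56949873-56949932: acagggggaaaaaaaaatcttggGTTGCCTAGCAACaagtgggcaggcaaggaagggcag
The Rfx1 site differed from the palindromic X-box, an arm of GTTGCC followed by AT and the reverse complement of the arm, by 1 substitution, G9A, with positions counted from 1 at the 5′ end of the site and the base of the palindrome given first. No other assigned peak held a match to the Rfx dimer consensus, which was read from the motif logo of the study and searched on both strands. The sites in the Rfx2 peaks have their arms 2 bases and 1 base apart, in that order.

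The middle of the peak nearest to the start site of each gene is shown next as the closest distal region at which p300 was called. Each line holds 150 bases of the plus strand, and the capitals mark X-box arms (GTTGCC on either strand), E-boxes (CANCTG) and homeodomain cores (TAATTA).
Rfx1, chr8:86707216-86707365: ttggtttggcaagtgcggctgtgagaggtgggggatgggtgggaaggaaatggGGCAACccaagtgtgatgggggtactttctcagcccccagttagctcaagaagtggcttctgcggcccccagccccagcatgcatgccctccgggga
Rfx2, chr17:56953884-56954033: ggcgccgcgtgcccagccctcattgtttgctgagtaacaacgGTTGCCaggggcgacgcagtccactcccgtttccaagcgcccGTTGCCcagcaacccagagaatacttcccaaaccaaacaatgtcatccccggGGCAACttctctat
Rfx3, chr19:28162558-28162707: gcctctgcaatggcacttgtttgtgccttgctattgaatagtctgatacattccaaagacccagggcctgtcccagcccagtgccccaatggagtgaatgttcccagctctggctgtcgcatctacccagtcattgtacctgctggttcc
Rfx4, chr10:84373985-84374134: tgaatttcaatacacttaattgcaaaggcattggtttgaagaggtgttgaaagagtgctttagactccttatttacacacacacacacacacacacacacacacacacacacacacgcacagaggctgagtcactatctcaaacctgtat
Rfx5, chr3:94831634-94831783: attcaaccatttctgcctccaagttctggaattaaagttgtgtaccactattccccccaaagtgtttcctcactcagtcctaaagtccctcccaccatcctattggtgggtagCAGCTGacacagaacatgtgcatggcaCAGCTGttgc
Rfx7, chr9:72475444-72475593: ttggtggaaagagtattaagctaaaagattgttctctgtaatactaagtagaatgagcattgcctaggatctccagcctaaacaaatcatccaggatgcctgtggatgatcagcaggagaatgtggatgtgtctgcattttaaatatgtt
Of these 6 stretches the one in Rfx2 held 3 X-box arms and the one near Rfx1 held 1. The Rfx5 stretch held 2 E-boxes, and the stretches near Rfx3, Rfx4 and Rfx7 held none of the 3 motifs in these 150 bases.

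The number of p300 peaks around the Rfx genes ran from 1 at Rfx5 to 9 at Rfx3, where a window of this size was expected to hold 2.59 peaks at the genome-wide density of 2.59 peaks per Mb. The windows of the 6 genes together held 30 peaks against 15.5 expected from their length. That length includes exons and start sites, where the authors had removed peaks. With exons and 2.5 kb around start sites left out, 13.1 peaks were expected in all. The windows of Rfx1, Rfx2 and Rfx5 were then expected to hold 1.99, 2.02 and 1.72 peaks. Of these 30, 10 lay under 5 kb from the next peak, beside 975 of all 6629 peaks. The intervals and tests treat peaks as independent and make no allowance for such grouping. Rfx3 had 9 peaks, with an exact 95% Poisson interval of 4.12 to 17.1. Rfx4 had 7 peaks (2.81 to 14.4), Rfx2 had 6 (2.20 to 13.1) and Rfx7 had 4 (1.09 to 10.2). Rfx1 had 3 peaks (0.619 to 8.77) and Rfx5 had 1 (0.0253 to 5.57). In the order Rfx3, Rfx4, Rfx2, Rfx7, Rfx1 and Rfx5 the intervals of all neighbours overlapped, and those of Rfx3 and Rfx5 at the ends of the order overlapped as well. Over all protein-coding genes the median was 1.00 peak per window, the quartiles were 0 and 3 and the highest count was 51, so Rfx1 lay at the upper quartile and Rfx7, Rfx2, Rfx4 and Rfx3 above it.

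Rfx3 was the 1 of 6 genes whose window held more peaks than its length predicted after adjustment, against 4.09% of all protein-coding genes (914 of 22367) by the same one-sided exact binomial test with Benjamini-Hochberg adjustment. The Rfx3 window held 3.47 times the expected number (exact p = 0.00145, adjusted p = 0.0354), and 2.73% of protein-coding genes had more peaks. Rfx4 (2.70 times, p = 0.0169, adjusted p = 0.197) and Rfx2 (2.32 times, p = 0.0483, adjusted p = 0.383) passed the exact test before adjustment and not after it. An unadjusted p under 0.05 was reached by these 3 Rfx genes and by 2823 of all protein-coding genes. Rfx7 (1.54 times), Rfx1 (1.16 times) and Rfx5 (0.386 times) had adjusted p = 1.00 in the exact test. The smallest count that passed for any gene was 9, which is the count of Rfx3. The call of the exact test for Rfx3 was lost when peaks under 5 kb apart were joined (8 peaks, adjusted p = 0.0890), with 250 kb to each side of the start site (2 peaks, adjusted p = 1.00), with 1 Mb to each side (11 peaks, adjusted p = 0.159) and in the gene body alone (1 peak, adjusted p = 1.00).

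**Figure D1:**
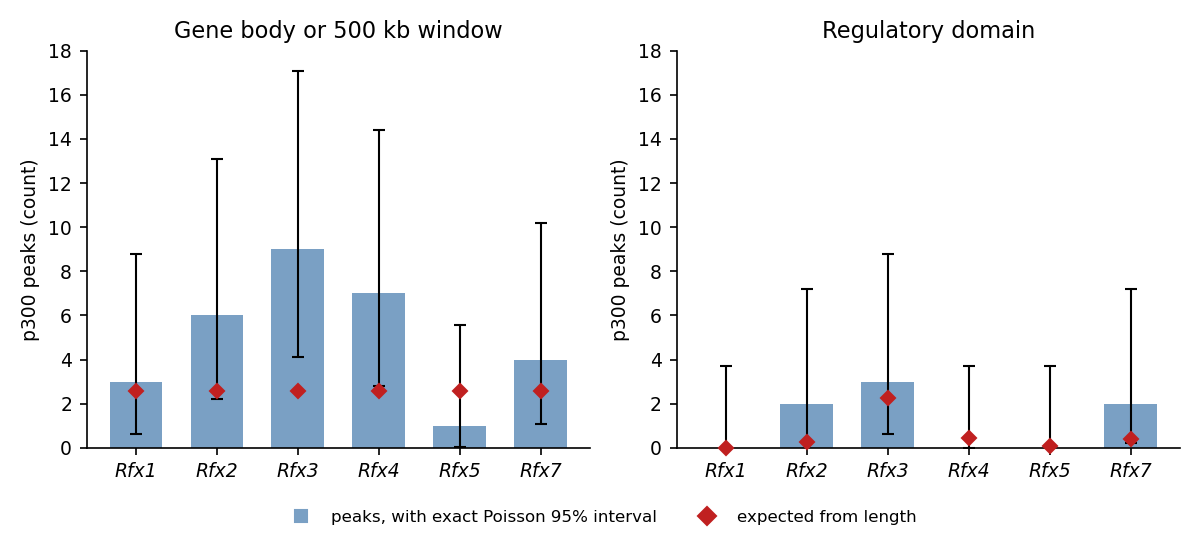
Number of p300 peaks at each Rfx gene, in the window of the rule and in the regulatory domain, with bars for the count, lines for exact 95% Poisson intervals and red diamonds for the number expected from length. Rfx3, with 9 peaks against 2.59 expected, is the 1 gene whose window count passed the adjusted test, and the domains of Rfx1, Rfx4 and Rfx5 held 0 peaks.

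Windows of this size reach across other genes, so the peaks were also counted in regulatory domains, which run from 5 kb upstream to 1 kb downstream of a start site and extend up to 1 Mb to the next such region of a protein-coding gene. The 6 domains held 7 peaks against 3.47 expected, and 0 of the 6 Rfx genes passed the adjusted exact binomial test, against 1.13% of all protein-coding genes (252 of 22367). Rfx2 was the 1 Rfx gene with an unadjusted p under 0.05, which 968 of all genes also had. Its domain of 0.0992 Mb held 2 peaks against 0.257 expected (7.78 times, exact p = 0.0279, adjusted p = 0.803). Rfx7 had 2 peaks in 0.160 Mb against 0.416 expected (exact p = 0.0658, adjusted p = 1.00). Rfx3 had the longest domain, 0.865 Mb, and its 3 peaks stood against 2.24 expected (exact p = 0.388, adjusted p = 1.00). Ranked by this p, its neighbours were 0610007P08Rik with 2 peaks in 0.518 Mb and Ccdc93 with 1 peak in 0.190 Mb. The domains of Rfx1 (0.00600 Mb), Rfx4 (0.170 Mb) and Rfx5 (0.0371 Mb) held 0 peaks, where 0.0155, 0.441 and 0.0960 were expected. A count of 0 allows up to 3.69 peaks at the upper 95% Poisson limit, so too few peaks could not be shown at domains of this length. The Rfx4 domain is cut short inside the gene itself, because the coding gene Gm6613 is annotated within its body.

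The peaks lay far from the Rfx start sites. The median distance was 333 kb, with 5 peaks within 100 kb, 8 between 100 and 250 kb and 17 beyond 250 kb, and 19 lay downstream and 11 upstream in the direction of transcription. An Rfx start site was the nearest coding start site for 4 of 30 peaks, and up to 14 coding start sites stood between a peak and its Rfx gene. Only 3 peaks lay inside an Rfx gene body, 2 of them in Rfx2 and 1 in Rfx3. Of the 30 peaks, 16 were inside an annotated gene, 14 were intergenic and 0 overlapped an annotated exon. The peak closest to the edge of the rule lay 494 kb from Rfx7, and the next one outside it lay 557 kb from the same gene.

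**Figure D2:**
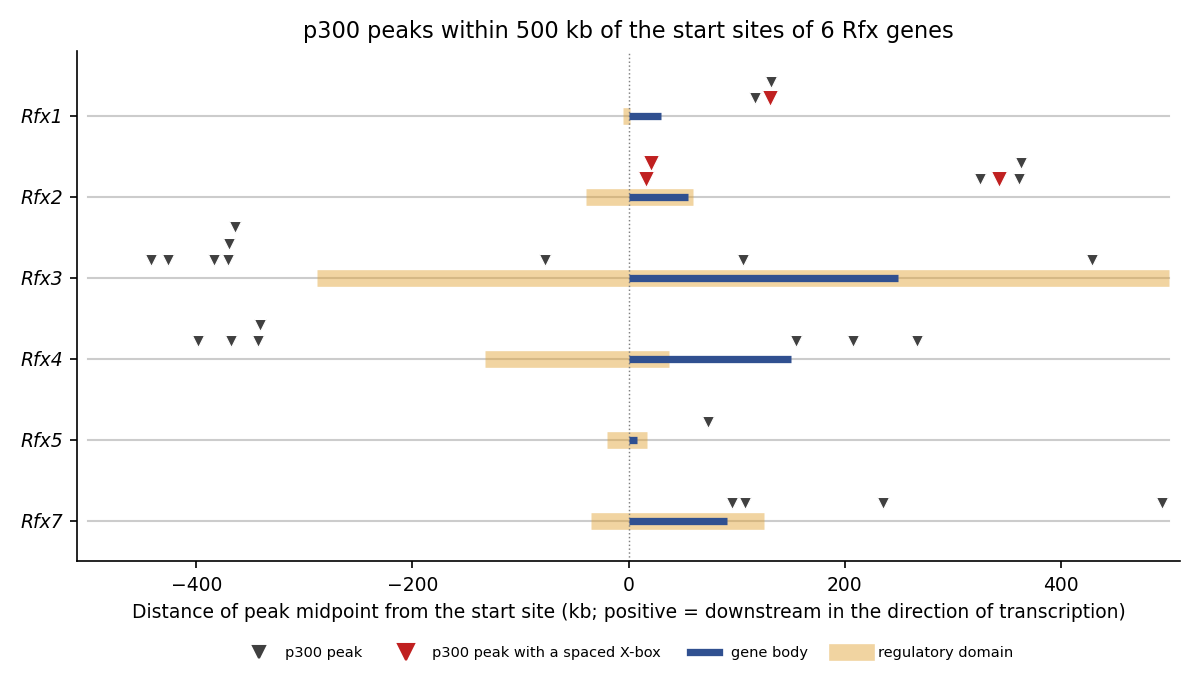
Position of each of the 30 p300 peaks (triangles, stacked where they lie close together) relative to the start site of its Rfx gene in kb, positive in the direction of transcription, with the gene body (blue), the regulatory domain (tan, cut at the edge of the window) and peaks holding a spaced X-box (red). The 6 upstream peaks of Rfx3 in the Glis3 gene lie outside its regulatory domain, and 2 peaks lie inside Rfx2.

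Rfx2 (ENSMUSG00000024206, chr17:56915320-56970431, minus strand, 55.1 kb) had the assigned peaks closest to a start site. Both lay in its intron 1, at 16.5 kb (chr17:56953515-56954403, 889 bp) and 20.5 kb (chr17:56949448-56950425, 978 bp) downstream of the start, with 3.09 kb between them. For both, Rfx2 had the nearest coding start site. The 4 other Rfx2 peaks lay 325 to 363 kb downstream in a window that holds 36 other coding start sites. Of these, 3 were nearest to Ptprs, a receptor-type protein tyrosine phosphatase of axons, with start site distances of 6.91, 8.64 and 11.4 kb, and 1 to Znrf4 at 6.89 kb. All 4 also fell in the regulatory domain of Ptprs (adjusted p = 0.103 in the exact test). The Rfx2 peaks were 605 to 1184 bp wide.

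Rfx3 (ENSMUSG00000040929, chr19:27836211-28085656, minus strand, 249 kb) had 9 peaks that fell into separate stretches. One peak lay in its intron 1, 106 kb downstream of the start (chr19:27978572-27979930, 1359 bp), 1 lay 77.0 kb upstream (chr19:28161883-28163382, 1500 bp) and 1 lay 429 kb downstream in intergenic sequence (chr19:27655817-27656950, 1134 bp). These 3 were the peaks in its regulatory domain, and Rfx3 had the nearest coding start site for the first and second. The 6 others lay 364 to 442 kb upstream, all in intron 4 of Glis3, which encodes a zinc finger transcription factor of the Krüppel type. The Glis3 start site was 74.6 to 153 kb from them and 289 kb from that of Rfx3. The Glis3 regulatory domain held 8 peaks, 7 of them among the 9 of Rfx3, and it passed the exact test on its own account (p = 4.14e-04, adjusted p = 0.0401). The window count of Rfx3 and the domain count of Glis3 thus rest largely on shared peaks, and which gene the peaks act on was not measured. The widest of the 30 peaks was among them, at 2648 bp (chr19:28468050-28470697, width percentile 99.2), 384 kb upstream of Rfx3.

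Rfx4 (ENSMUSG00000020037, chr10:84218807-84369283, plus strand, 150 kb) had 7 peaks and 0 in its body. The nearest lay 155 kb downstream of the start, just beyond the 3′ end of the gene (chr10:84373645-84374474, 830 bp), and 6.30 kb from the start of Ric8b. The next ones downstream lay at 208 kb, in intron 4 of Ric8b, and at 267 kb. The 4 upstream peaks lay 341 to 398 kb away, 3 of them in Nuak1, a kinase gene known for axon branching, whose regulatory domain held all 4 (adjusted p = 1.00 in the exact test). The Rfx4 peaks were the narrowest of the genes with more than 1 peak, with a median of 850 bp and a range of 772 to 1364 bp.

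Rfx1 (ENSMUSG00000031706, chr8:86590735-86620891, plus strand, 30.2 kb) had 3 peaks, all downstream and outside its domain. They lay at 117 kb (chr8:86706728-86707854, 1127 bp), 131 kb (chr8:86721208-86721918, 711 bp) and 132 kb (chr8:86722054-86723001, 948 bp), and the last pair was 135 bp apart. The nearest coding start site of each was that of Nanos3, a germ cell gene, at 6.84, 21.1 and 22.1 kb, with 6 coding start sites between the first peak and Rfx1. All 3 peaks fell in the domains of both Nanos3 (adjusted p = 0.101) and Zswim4 (adjusted p = 0.0628) in the exact test.

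Rfx5 and Rfx7, the members without a dimerization domain, had 5 peaks between them. The 1 peak of Rfx5 (ENSMUSG00000005774, chr3:94757997-94765483, plus strand, 7.49 kb) lay 73.7 kb downstream (chr3:94831278-94832139, 862 bp), was nearest to Zfp687 at 12.5 kb and stood alone, with the next peak 639 kb away. Rfx7 (ENSMUSG00000037674, chr9:72380047-72470744, plus strand, 90.7 kb) had its nearest peaks at 95.5 kb (chr9:72475137-72475901, 765 bp) and 108 kb (chr9:72487239-72488814, 1576 bp), both past its 3′ end and within its regulatory domain. Both were nearer to the start of Nedd4, a ubiquitin ligase gene, at 34.8 and 22.3 kb. The other 2 lay at 235 kb, nearest to Prtg, and at 494 kb, in intron 6 of Pigb.

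Other genes tied to the Rfx system were counted in the same way. Rfx6, known from pancreatic islets, had 0 peaks in its window, and Rfx8 had 1, with 0 in either domain. Among the partners of Rfx5, Rfxap had 3 window peaks, Rfxank 2 and Ciita, the MHC class II transactivator, 0, and 0 of 3 passed the adjusted exact test in the window or the domain, where 4.09% and 1.13% of all protein-coding genes passed. The MHC class II genes H2-Aa, H2-Ab1 and H2-Eb1 had 0 peaks and Cd74 had 3, with 0 of 4 called. Of 12 cilium genes known to carry X-boxes, 0 passed the adjusted exact test in the window or the domain, with 0 to 8 window peaks and a median of 2, beside 1 over all protein-coding genes. With so few genes listed, 0 calls is near the share over all genes and is no result about these lists. Rsph1, a radial spoke gene of motile cilia, had 8 (unadjusted p = 0.00522, adjusted p = 0.0870 in the exact test), and Bbs2 had 6 (unadjusted p = 0.0483, adjusted p = 0.383). The dynein genes Dnah9 and Dnah11 had 4 and 5 window peaks, 2 of them in each gene body, and Ift172 had 0.

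The Nfi genes, a family of transcription factors of neural development whose motif stands beside that of Rfx in the motif logos of the study, served as the compared family. The paper had already listed Nfib, with 30 peaks, among the genes most enriched for peaks in these same data. A high count for this family was thus known in part beforehand. The Nfi genes had 5 to 21 window peaks with a median of 11.5, against 1 to 9 and 5 for the Rfx genes. In the window 2 of 4 were called, beside 4.09% of all protein-coding genes. In the regulatory domains the Nfi genes had 4 to 30 peaks, whereas the Rfx genes had 0 to 3. By the exact test 4 of 4 Nfi genes were called (Nfib with 30, adjusted p = 1.00e-14), beside 1.13% of all protein-coding genes. The domains differ in length, with 0.227 to 3.51 peaks expected for the Nfi genes and 0.0155 to 2.24 for the Rfx genes. The 4 Nfi bodies held 6, 15, 4 and 3 peaks in the order Nfia, Nfib, Nfic and Nfix, and the 6 Rfx bodies 0 to 2. The difference between the families was not tested.

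The peaks near the Rfx genes were of ordinary width. Their median was 976 bp with quartiles of 869 and 1173 bp, beside 1017, 860 and 1260 bp for all 6629 peaks, and 12 of 30 were wider than the median of all. Their GC content had a median of 49.0%, beside 45.2% for all peaks, and 22 of 30 were at or above the median of all. The GC content varied by gene. The 3 peaks of Rfx1 ran from 59.0 to 62.4% and the 6 of Rfx2 from 49.8 to 62.5%, whereas the 9 of Rfx3 ran from 41.2 to 48.2% and the 7 of Rfx4 from 42.3 to 51.2%. The 4 peaks of Rfx7 ran from 40.8 to 53.7%, and the Rfx5 peak had 48.3%. The ranges of Rfx1 and Rfx2 did not overlap that of Rfx3, whereas the range of Rfx2 overlapped those of Rfx4 and Rfx7. The 7 peaks at or above the 95th percentile of all peaks in GC content were all near Rfx1 or Rfx2.

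**Figure D3:**
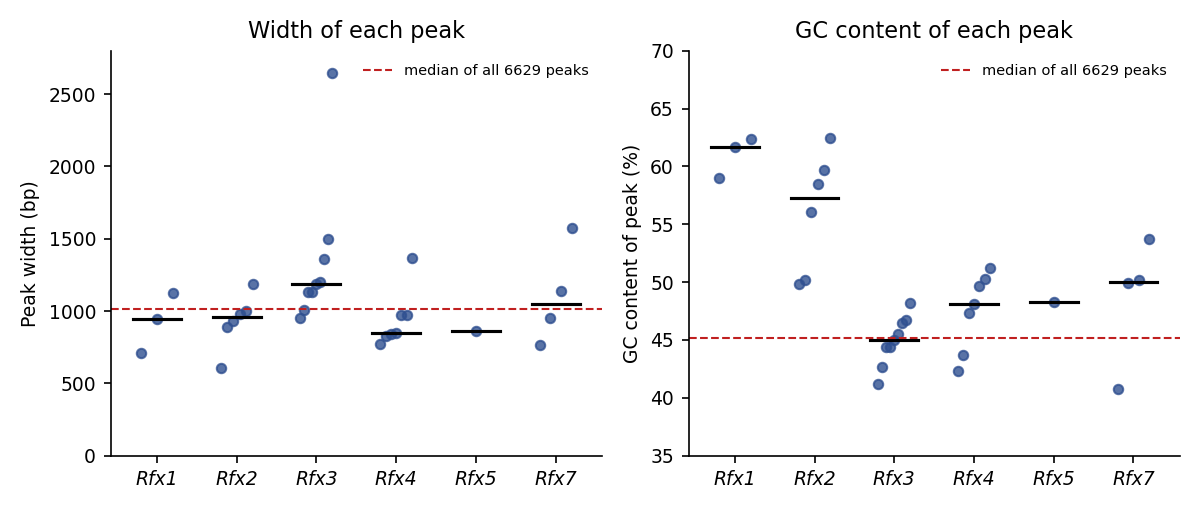
Width in bp and GC content in percent of the 30 peaks by Rfx gene, each point a peak, with a black bar at the median of each gene and a dashed line at the median of all 6629 peaks. The Rfx1 peaks sit between 59.0 and 62.4% GC and the Rfx3 peaks between 41.2 and 48.2%, and the Rfx3 peak of 2648 bp is the widest.

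The Rfx dimer consensus matched 1 of the 30 peaks (3.33%, exact Clopper-Pearson interval 0.0844 to 17.2%), the Rfx1 peak printed above, beside 248 of all 6629 (3.74%). In the middle 500 bp the shares were 1 of 30 and 2.19%, against 0.870% of the 5116421 tiles of 500 bp into which the genome was cut. The interval of the Rfx peaks includes the share of all peaks, so no difference was detectable with 30 peaks. Of all protein-coding genes, 1951 (8.72%) had a peak with a dimer match in their window, and of the Rfx genes 1 did. Matches to the palindromic X-box with up to 3 mismatches over its 14 bases, searched as 1 strand since the palindrome reads the same on both, were found in 5 of 30 peaks (16.7%, interval 5.64 to 34.7%) and in 9.47% of all peaks. After the Rfx1 site with 1 mismatch came an Rfx2 peak with 2 and 3 peaks with 3, namely the last Rfx1 peak and 2 of the Rfx3 peaks in Glis3. The closest match in each of these 4 peaks is shown for what departs from the palindrome, in 60 bases of the plus strand with the 14 bases in capitals. Where matches of a peak tied, the first along the plus strand is shown.
Rfx2, peak near Ptprs, chr17:56627645-56627704: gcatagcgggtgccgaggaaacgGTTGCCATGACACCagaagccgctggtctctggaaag
Rfx1, last peak, chr8:86722386-86722445: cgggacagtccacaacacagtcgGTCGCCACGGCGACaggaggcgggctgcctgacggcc
Rfx3, in Glis3, chr19:28455380-28455439: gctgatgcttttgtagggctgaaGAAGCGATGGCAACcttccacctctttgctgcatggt
Rfx3, in Glis3, chr19:28511107-28511166: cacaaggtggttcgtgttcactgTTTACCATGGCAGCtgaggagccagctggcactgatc
The substitutions, with the base of the palindrome first, were G10A and A13C in the Rfx2 site and T3C, T8C and A12G in the Rfx1 site. In the Rfx3 sites they were T2A, T3A and C6G in the first and G1T, G4A and A13G in the second. The first Rfx3 site keeps its right arm whole, and in the Rfx2 site the left arm is whole. The other site of that Rfx2 peak, printed earlier with the X-boxes, ties with it at 2 mismatches and keeps its right arm whole.

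The single X-box arm GTTGCC, counted on both strands and therefore also inside the longer matches, occurred in 15 of 30 peaks (50%, interval 31.3 to 68.7%), beside 34.5% of all peaks (33.3 to 35.6%). In the middle 500 bp the shares were 36.7% (19.9 to 56.1%) and 19.9%, against 12.9% of genome tiles. In number, 27 arms lay in 32.4 kb of Rfx peaks (0.834 per kb) and 2977 in 7429 kb of all peaks (0.401 per kb). They were unevenly spread, with 7 arms in the 3 peaks of Rfx1, 9 in the 6 of Rfx2, 5 in the 9 of Rfx3, and 2 each at Rfx4, Rfx5 and Rfx7. Each Rfx1 peak had at least 1 arm. GC content also differed between the peaks, at 59.0% in the last Rfx1 peak and 50.2% in the intron 1 peak of Rfx2 nearest to its start, and its part in these shares was not tested. At least 2 arms were found in 8 Rfx peaks and in 569 of all 6629 peaks (8.58%). At least 3 were found in 2 Rfx peaks and in 104 of all (1.57%). The same 2 Rfx peaks had 4 arms, the most in any Rfx peak, and at least 4 were found in 14 of all peaks (0.211%). They were the last Rfx1 peak and the intron 1 peak of Rfx2 nearest to its start. In the Rfx2 peak the arms lay at -30, 12, 64 and 425 bp from the centre, so 3 of the 4 fell in the 150 bases printed above.

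Because the arms of that Rfx2 peak were seen to pair with degenerate arms at other spacings, a spaced X-box with 0 to 3 bases between its arms was searched on both strands after the arms had been seen, and its values are a description of what prompted the search. It occurred in 4 of 30 Rfx peaks (13.3%, interval 3.76 to 30.7%), beside 189 of all peaks (2.85%, 2.46 to 3.28%). In the middle 500 bp it occurred in 3 of 30 (10%, 2.11 to 26.5%), in 1.70% of all peaks and in 0.546% of genome tiles. The 4 peaks were the Rfx1 peak at 131 kb, the Rfx2 peak near Ptprs and both peaks in intron 1 of Rfx2, which together held 5 spaced X-boxes. The nearer intron 1 peak held 2 of them, as 9 of all peaks (0.136%) did, and their centres lay -26.0 and 15.0 bp from the centre of the peak. They are shown as the closest pair of sites at an Rfx gene, with the X-box in capitals in 60 bases of the plus strand.
Rfx2, intron 1, nearer peak, left site, chr17:56953904-56953963: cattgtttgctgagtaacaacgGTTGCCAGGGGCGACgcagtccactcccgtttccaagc
Rfx2, intron 1, nearer peak, right site, chr17:56953945-56954004: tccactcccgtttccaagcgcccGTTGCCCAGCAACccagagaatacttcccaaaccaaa
The left site has 3 bases between its arms and the right site has 1. In the farther intron 1 peak the site printed earlier lay -35.0 bp from the centre. Peaks with a spaced X-box inside the gene body were found for 80 of 22367 protein-coding genes (0.358%), and at least 2 such peaks for 5 genes (0.0224%), of which Rfx2 was 1. In the window of the rule, at least 3 such peaks were found for 27 genes (0.121%), again with Rfx2 among them through the peak near Ptprs. These percentages are of all protein-coding genes, with or without a peak. Because an Rfx2 peak prompted the search, the place of Rfx2 in these counts is no separate evidence. A match to these letters does not show that an Rfx protein was bound.

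**Figure D4:**
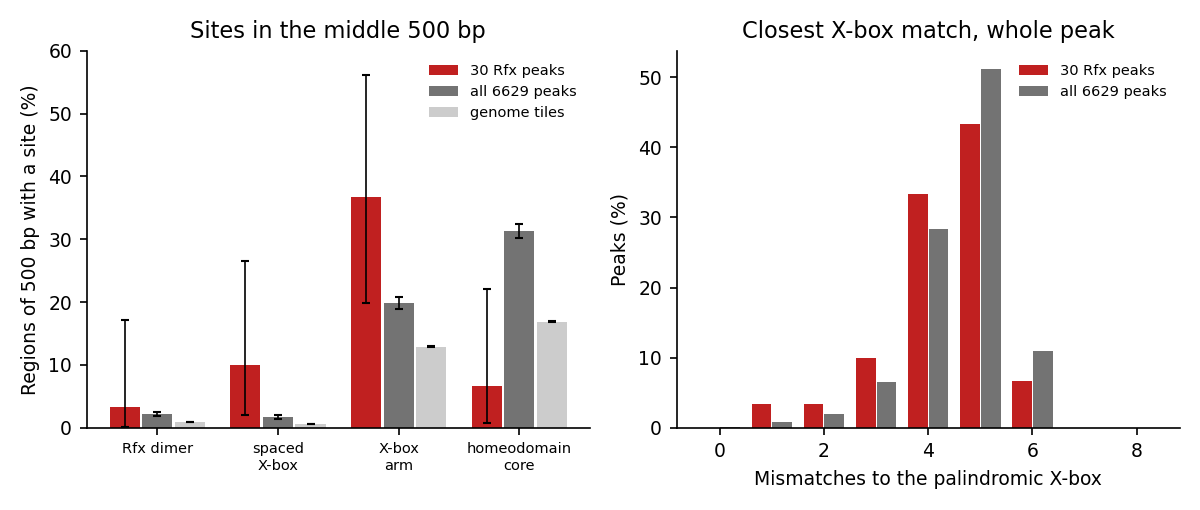
Left, percent of regions with each motif in the middle 500 bp of the 30 Rfx peaks (red), of all 6629 peaks (dark grey) and in genome tiles of 500 bp (light grey), with exact 95% Clopper-Pearson intervals; right, percent of whole peaks by mismatches of their closest match to the palindromic X-box. The Rfx peaks had the X-box arm in 36.7% and the homeodomain core in 6.67%, beside 19.9 and 31.3% of all peaks.

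A homeodomain core and an E-box were searched as well. The homeodomain core TAATTA, which reads the same on both strands, occurred in 8 of 30 Rfx peaks (26.7%, interval 12.3 to 45.9%), beside 46.7% of all peaks, and in the middle 500 bp in 2 of 30 (6.67%, 0.818 to 22.1%) beside 31.3% (30.2 to 32.4%) of all peaks and 16.9% of genome tiles. The 8 were 5 peaks of Rfx3, 2 of Rfx7 and 1 of Rfx4, and the peaks of Rfx1, Rfx2 and Rfx5 had 0. The part of GC content in this share was not tested. The E-box CANCTG, the core bound by neurogenic helix-loop-helix factors, occurred on either strand in 29 of 30 Rfx peaks (96.7%) and in 96.1% of all peaks. Nearly every whole peak holds this short core, so these shares could hardly differ. In the middle 500 bp it occurred in 28 of 30 (93.3%, 77.9 to 99.2%), beside 85.4% of all peaks and 67.6% of genome tiles. The 1 peak without an E-box over its whole length was the Rfx1 peak at 131 kb. The highest number, 8, was found in the Rfx5 peak and in the Rfx7 peak at 494 kb.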

How the data were processed

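The deposited file is a list of p300 peak coordinates in BED form on mm9, without scores or counts. The authors aligned the reads with ELAND, called peaks with MACS 1.4 (version as in the submitters' processing notes) with the input as control, and filtered the calls for distal, non-exonic sites (start site margin 2.5 kb) and for doubtful read placement. By GENCODE vM1, which need not be the annotation they used, 6331 of the 6629 peak midpoints met the exon and start site criteria. Promoters and peak heights were thus not measured, and 1 library without replicate gives no biological error.

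Start sites were taken from GENCODE vM1, from the transcript with the longest coding sequence, or the longest span where these tied. Peaks were counted by midpoint in the window of the rule and in regulatory domains (5 kb upstream, 1 kb downstream, extended up to 1 Mb). Each count was compared with the assembled length (2.56 Gb in all) by a one-sided exact binomial test for more peaks, fitted for all 22367 protein-coding genes with Benjamini-Hochberg adjustment and a threshold of 0.05. Windows of neighbouring genes overlap and share peaks, so their tests are not independent. Intervals are exact 95% Poisson or Clopper-Pearson intervals and cover counting error only. Motifs were searched in NCBIM37. Python 3.11.15, numpy 2.4.6, scipy 1.17.1, numba 0.67.0 and matplotlib 3.10.9 were used. The tests were checked only on simulated peaks placed independently at random. Real peaks are grouped, so the check does not cover calls on grouped peaks.

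Named genes were the 6 Rfx genes, the gene with the nearest coding start site for each peak, the genes ranked beside Rfx3, the other Rfx genes, Rfx5 partners, X-box cilium genes, MHC class II genes, Nfi genes and tissue markers. Genes whose domains hold the peaks (Zswim4, Glis3, Gm6613) were named after their values were seen. The Rfx genes and all lists were chosen with earlier results of these data known. Dnah9 and Dnah11 were matched through the older symbols Dnahc9 and Dnahc11. The input library was not analysed here. Alternatives varied the distance, the domain extension, the start site, the gene set, the peak set and the expected density.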

Additional observations from a re-analysis of the deposited data

How the results depend on the processing

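Of 150 recomputed values, 135 kept their side of the threshold, stayed within 1.5 times the reported count or, for values without a test, within the reported interval or spread, 15 did not and 0 reversed. Many of the 135 belong to genes far from any call. The domains of Rfx1, Rfx4 and Rfx5, for example, held 0 peaks in every setting. The total is therefore no measure of how stable the call of Rfx3 was. The number of Rfx genes called by their window fell from 1 to 0 with peaks under 5 kb apart joined, with 250 kb or 1 Mb to each side, and in the gene body alone, and the gene lost was Rfx3 each time. The 30 window peaks (15.5 expected) became 12 with only the wide peaks (the median width or more, 7.80 expected). They became 13 with 250 kb to each side (7.77 expected) and 3 in the gene body (1.51 expected). With 1 Mb to each side, 44 peaks stood against 31.1 expected, which counts as kept because only the counts were compared. The 7 domain peaks (3.47 expected) became 4 with the wide peaks (1.74 expected). They also became 4 when every annotated gene bounded the domains (1.82 expected). The share of Rfx peaks with a dimer match went from 3.33% to 0%, both among the 7 peaks in the domains and among the 12 wide peaks. Why the values moved in these settings was not tested. With other definitions of the site the share of Rfx peaks rose to 16.7% (palindromic X-box with up to 3 mismatches), beside 9.47% of all peaks. For the spaced X-box, added after the data were seen, it was 13.3%, beside 2.85% of all peaks. Both values lie inside the wide interval of the reported share. That interval belongs to the dimer consensus, and these are other motifs, so this is no measure of stability. Over all genes, the 914 called by window became 515 with peaks joined, 459 with wide peaks, 468 with 250 kb, 1537 with 1 Mb, 1573 of 37273 with all annotated genes and 49 in the gene body, and the 252 called by domain became 158 with peaks joined and 153 with wide peaks. No paired analysis was possible because there is 1 p300 library, and leaving out a replicate was not possible for the same reason. Depth was not given with the peaks, so a region without a peak cannot be told from one missed at this depth.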
